A study of Mus musculus with 6 samples.

Results

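Cadherins, their catenin partners and the proteins of desmosomes hold neighbouring cells together, and their transcripts were examined in whole embryonic mouse lungs at E11.5 (*days post coitus*). The members were taken by name: every gene with the symbol Cdh followed by a number, 5 catenin genes (*Ctnna1*, *Ctnna2*, *Ctnnb1*, *Ctnnd1* and *Ctnnd2*) and 11 desmosomal genes. This gave 39 genes of the 23420 rows in the deposited table, and all 39 had values high enough to be tested. They comprised 23 cadherins (5 classical type I, 13 type II and 5 others), 5 catenins, 2 desmosomal cadherins and 9 genes of the desmosomal plaque and its neighbours. The study asked how the lung epithelium depends on mTORC1, a kinase complex that controls cell growth and contains RPTOR (Raptor). Mutant lungs were *Rptor f/f; Shh Cre/+*, and control lungs were *Rptor f/+; Shh Cre/+* by their sample labels. By these labels control lungs also carried the Cre and a floxed *Rptor* allele, although a supplement of the study writes *Shh Cre/+* alone for the controls of this stage. Cre was driven from the *Shh* locus, which is active in the lung epithelium, so that the mesenchyme, vessels and nerves of the mutant lungs kept *Rptor*. Each group had 3 pools, each of 3 or 4 lungs of 1 genotype.

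Classical cadherins are calcium-dependent adhesion proteins that bind the same kind of cadherin on the next cell. Their tails bind beta-catenin (*Ctnnb1*) or plakoglobin (*Jup*), which connect to alpha-catenin and so to actin, while p120-catenin (*Ctnnd1*) keeps the cadherin at the membrane. In desmosomes, desmogleins and desmocollins bind plakoglobin and plakophilins, and desmoplakin (*Dsp*) ties them to keratin filaments. In the embryonic lung E-cadherin marks the epithelium, VE-cadherin (*Cdh5*) the endothelium and cadherin-11 (*Cdh11*) mesenchyme.

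The values are normalized counts, in which the reads of each gene were scaled by a factor for sequencing depth. The 6 libraries held between 20197642 and 21276090 reads. *Rptor* was at 2126, 2193 and 2279 in the control pools and at 2023, 2137 and 2148 in the mutant pools. The groups overlapped for this gene (log2 fold change -0.06, standard error 0.05, limma adjusted p = 0.584). The whole-gene count includes the cells that Cre does not reach, and their part in this value was not tested. Markers of lung epithelium were present in all pools, with 0 of 20 listed genes at 0 in every pool. Of these 20 epithelial markers, 17 had lower and 1 had higher values in mutant lungs at an unadjusted p under 0.05, beside 6.89% and 6.67% of all tested genes. Their median log2 fold change was -0.45, and their summed level was 14492 to 17829 in control pools and 12201 to 13005 in mutant pools. In whole lungs, fewer epithelial cells and less RNA per epithelial cell cannot be told apart. Among control pools, pool 3 stood apart: the difference between replicate libraries, as chi-square per degree of freedom, was 14.0 between control pools 2 and 3 and 2.19 to 7.91 for the other pairs.

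*Cdh1* and *Cdh16* fell and *Cdh2* rose in the mutant lungs. These 3 genes are 7.69% of the 39 members, while 0.501% of the 17168 tested genes reached an adjusted p under 0.05 in the same limma comparison (0.315% lower and 0.186% higher). At an unadjusted p under 0.05, 8 members (20.5%) were lower, beside 6.89% of all tested genes, and 3 members (7.69%) were higher, beside 6.67%. The 8 were *Cdh1*, *Cdh16*, *Perp*, *Pkp3*, *Pkp2*, *Ctnnd2*, *Dsg2* and *Ctnna1*, and the 3 were *Cdh2*, *Cdh5* and *Ctnna2*. The median log2 fold change was -0.05 over the 39 members and -0.0021 over all tested genes. Every mutant pool lay below every control pool for 7 members and above for 3, where 10.5% and 9.77% of all tested genes did so. The count at the adjusted threshold depended on single pools. It was 0 members without control pool 1, where 1 of 17007 tested genes passed, and 0 without mutant pool 3, where 1 of 17021 passed. Without control pool 3 it was 5 members, which then included *Ctnnd2* and *Pkp2* (2.75% of all genes tested without that pool passed). The edgeR test of the reads, in which control pool 3 was not entered, called the same 5 members, beside 3.68% of the genes it tested. When each library was scaled to the epithelial markers, the median of all tested genes moved to 0.41, and *Cdh1* (-0.56) and *Cdh16* (-0.47) remained below 0 while *Ctnna1*, *Ctnnd2* and *Dsg2* turned to 0.33, 0.07 and 0.16.

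**Figure D1:**
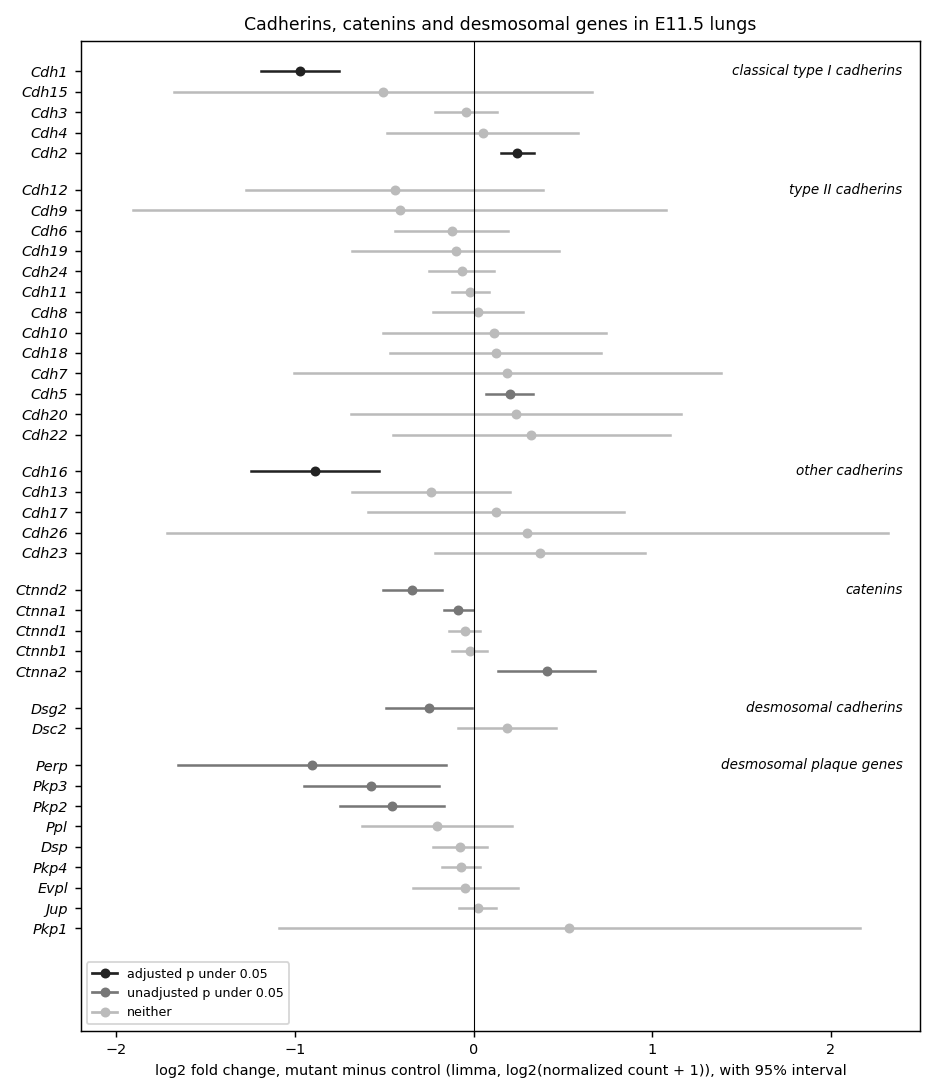
Log2 fold change (mutant minus control, horizontal axis) of each of the 39 members, grouped by role, with dots for the limma estimate and bars for its 95% interval. Black marks an adjusted p under 0.05, dark grey an unadjusted p under 0.05. *Cdh1* (-0.97), *Perp* (-0.90) and *Cdh16* (-0.89) lie farthest to the left, and wide bars belong to genes with few reads.

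Among the classical type I cadherins, *Cdh1*, which encodes E-cadherin, measured 1507, 1522 and 1288 normalized counts in the control pools numbered 1 to 3, against 824, 630 and 753 in the mutant pools in the same order. The lowest control pool was above the highest mutant pool, and the mutant mean was 51.1% of the control mean. The log2 fold change was -0.97 (95% interval -1.19 to -0.75, limma adjusted p = 0.00728). *Cdh2*, which encodes the N-cadherin of mesenchyme, heart and nerve cells, was at 3372, 3496 and 3204 in control pools and at 3992, 3961 and 3977 in mutant pools. The 3 mutant pools were close to each other (SD 15.5) and all above the control pools, whose SD was 147. The log2 fold change of *Cdh2* was 0.25 (95% interval 0.15 to 0.34, adjusted p = 0.0415). Without control pool 1, where 1 of all tested genes passed, neither call was kept (limma adjusted p = 0.125 for *Cdh1* and 0.245 for *Cdh2*). Without mutant pool 3, where again 1 gene passed, the values were 0.071 and 0.269. The call of *Cdh2* was also lost without mutant pool 1 (0.162) or 2 (0.165). The log2 fold changes stayed between -1.06 and -0.86 for *Cdh1* and between 0.21 and 0.27 for *Cdh2*.

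Markers of several other cell types were set beside *Cdh2*. The share of all tested genes at an unadjusted p under 0.05 was 6.67% higher and 6.89% lower, and the counts of markers are at this threshold. Of 14 mesenchymal markers, 5 were higher and 0 lower, and their summed level was 98228 to 104279 in control pools and 119238 to 126765 in mutant pools. Most of this sum is from 3 collagen genes, named after their values were seen, whose control and mutant means were 19800 and 27828 for *Col1a1*, 24270 and 30639 for *Col1a2* and 27391 and 32858 for *Col3a1*. Only 5 of the 14 genes had all mutant pools above all control pools, beside 9.77% of all tested genes, and 9 overlapped, among them *Pdgfra*, *Pdgfrb* and *Foxf1*. Of 6 tested mesothelial markers 3 were higher and 0 lower. Markers of heart muscle and of nerve cells, which also express *Cdh2*, did not follow: 3 of 9 cardiac markers were lower and 0 higher (summed level 884 to 988 in control and 705 to 772 in mutant pools), and 3 of 12 neural markers were lower and 0 higher (2802 to 3199 and 2358 to 2911). The part of these cells in the rise of *Cdh2* was not tested.

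*Cdh3*, which encodes P-cadherin, another classical cadherin of epithelia, gave 1369, 1268 and 1566 in the control lungs against 1423, 1259 and 1386 in the mutant lungs. Its groups overlapped, and the log2 fold change was -0.04 with a 95% interval of -0.22 to 0.13, which does not reach the interval of *Cdh1*. The direction of this small difference turned without control pool 3 (0.04) or mutant pool 2 (0.0090). *Cdh3* and *Cdh1* are neighbours on chromosome 8 of GRCm38, *Cdh3* at chr8:106510891-106557297 and *Cdh1* at chr8:106603351-106670246, both on the plus strand and 46.1 kb apart. The remaining type I genes were low. *Cdh4* (R-cadherin) had means of 67.0 and 69.5 in control and mutant pools. *Cdh15*, the M-cadherin of skeletal muscle, was at 42.2, 15.5 and 91.4 in control pools and at 34.7, 17.6 and 33.4 in mutant pools. The summed level of 7 skeletal muscle markers was 167, 47.5 and 346 in the same control pools and 232, 55.9 and 198 in the mutant pools, so that pool 2 was the lowest of its group and control pool 3 the highest for both measures.

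Of the 13 type II cadherins, 0 were lower and 1 (7.69%) was higher at an unadjusted p under 0.05, beside 6.89% and 6.67% of all tested genes, and the median log2 fold change was 0.03. *Cdh11*, the most highly expressed cadherin, had 10295, 10392 and 11405 normalized counts in the control lungs against 10773, 10541 and 10330 in the mutant lungs. The groups overlapped, with a log2 fold change of -0.02 (95% interval -0.12 to 0.08). *Cdh5*, the VE-cadherin of endothelial adherens junctions, was at 3283, 3734 and 3215 in control pools and at 4018, 3745 and 3994 in mutant pools. Every mutant pool was above every control pool, though mutant pool 2 exceeded control pool 2 only slightly. The log2 fold change was 0.20 (95% interval 0.07 to 0.33, unadjusted p = 0.00624, limma adjusted p = 0.172), and without control pool 2 it was 0.27 and passed (adjusted p = 0.0394, and up to 0.5 without another pool). Of 14 endothelial markers 9 were higher and 0 lower at an unadjusted p under 0.05, beside 6.67% and 6.89% of all tested genes. Their summed level was 16364 to 18633 in control pools and 19420 to 19830 in mutant pools. *Pecam1* (log2 fold change 0.07) and *Kdr* (-0.0088), named after their values were seen, were among the markers whose groups overlapped. The part of endothelial cells in the value of *Cdh5* was not tested.

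Many of the other type II genes are best known from the nervous system. *Cdh24* (means 882 and 838 in control and mutant pools), *Cdh8* (408 and 411) and *Cdh6* (266 and 243) were the higher ones. *Cdh10*, *Cdh19*, *Cdh18*, *Cdh9* and *Cdh22* had control means from 30.9 to 98.6, and *Cdh12*, *Cdh20* and *Cdh7* were lower still, with a control mean of 4.66 for *Cdh20*. All 11 had overlapping groups. *Cdh9* had the most uneven control pools, at 35.4, 6.20 and 65.6, with mutant pools at 24.5, 11.8 and 21.6. For the 8 lowest the 95% intervals spanned at least a log2 unit, from -1.91 to 1.08 for *Cdh9* and from -0.47 to 0.71 for *Cdh18*.

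Of the 5 cadherins outside these classes, *Cdh16* fell. It encodes kidney-specific cadherin, a cadherin with a short tail that is known from kidney and thyroid epithelium. Its normalized counts were 265, 315 and 233 in the control lungs against 172, 115 and 154 in the mutant lungs. No value was shared between the groups, and the mutant mean was 54.2% of the control mean. The log2 fold change was -0.89 (95% interval -1.25 to -0.53, limma adjusted p = 0.0496). The adjusted p was above the threshold without each pool except control pool 3 (0.0664 to 0.271) and 0.00601 without that pool, and the log2 fold change stayed between -1.01 and -0.72. Genes of foregut neighbours summed to 386 to 574 in control pools and 397 to 426 in mutant pools. In this list 1 of 8 tested genes was lower at an unadjusted p under 0.05, beside 6.89% of all tested genes. Its thyroid genes were *Pax8*, with control and mutant means of 1.33 and 1.68 and too low to be tested, and *Tg* (44.9 and 43.4). The largest part of the sum was *Alb* (220 and 181). Their part in the fall of *Cdh16* was not tested.

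*Cdh13*, the T-cadherin that is held to the membrane by a lipid anchor, was at 45.2, 45.5 and 59.6 in control pools and at 45.0, 45.1 and 36.3 in mutant pools. The groups did not overlap, but by less than 1 normalized count, and the log2 fold change of -0.24 had a 95% interval of -0.68 to 0.20. *Cdh17*, the liver-intestine cadherin, had means of 11.7 and 12.6. *Cdh23*, a cadherin of the tip links of hair cells, had means of 23.0 and 30.4, and *Cdh26* had means of 5.61 and 5.33 with 1 control pool at 0. The limma adjusted p of these 4 genes was 0.584 to 0.916.

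**Figure D2:**
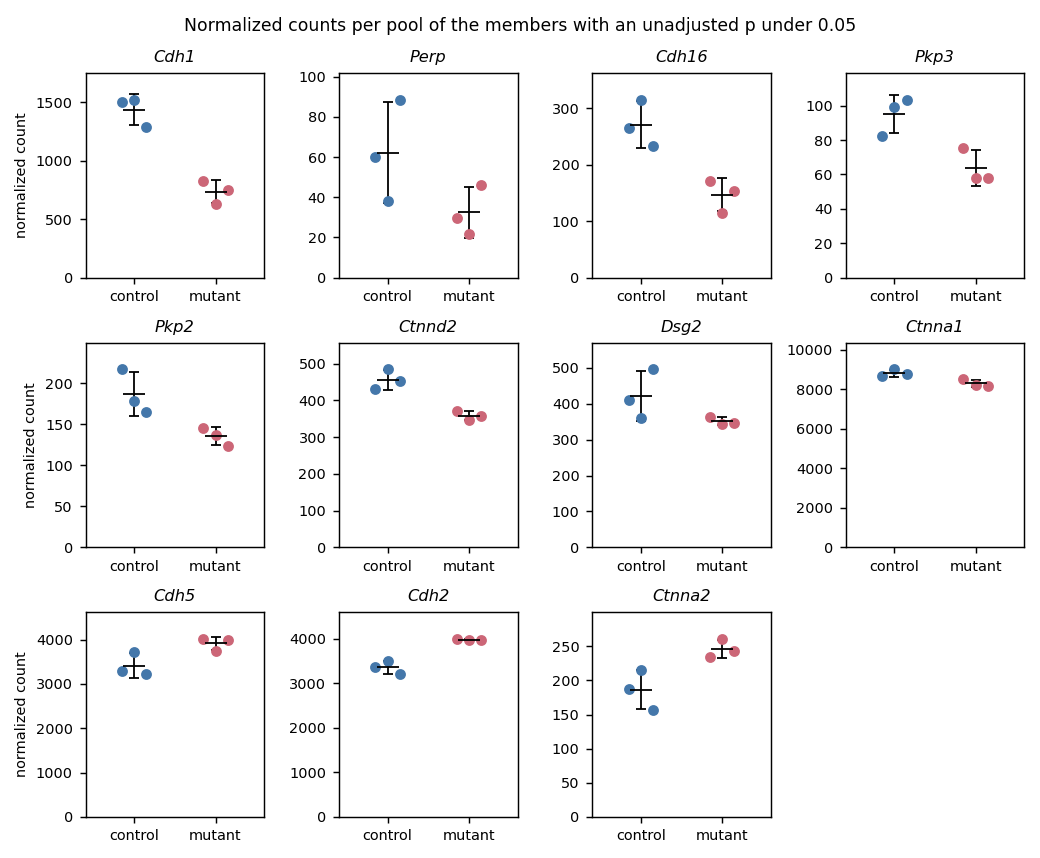
Normalized counts (vertical axes, each starting at 0) of the 11 members with an unadjusted p under 0.05, with a dot for each pool (pools 1, 2 and 3 from left to right), the group mean as a dash and the SD as bars. *Cdh1* is between 1288 and 1522 in control pools and between 630 and 824 in mutant pools, whereas the dots of *Perp* and *Dsg2* overlap between groups.

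By limma 0 of the 5 catenins passed the adjusted threshold (edgeR on 5 libraries called *Ctnnd2*), and at an unadjusted p under 0.05 2 were lower and 1 higher, beside 6.89% and 6.67% of all tested genes. *Ctnnb1*, whose product serves both junctions and Wnt signalling, had the highest count of all members, at 31279, 29140 and 32112 in control pools and at 30806, 30014 and 30228 in mutant pools. Its groups overlapped, and the 95% interval of its log2 fold change was -0.12 to 0.07. Exons of *Ulk4* on the other strand share 14.6% of its exon bases in GENCODE M21, and whether reads were counted by strand is not given in the sources used here. *Ctnna1*, the alpha-catenin of epithelia and mesenchyme, was at 8667, 9013 and 8760 in control pools and at 8524, 8200 and 8194 in mutant pools. All mutant pools were lower, by a log2 fold change of -0.09 (95% interval -0.17 to -0.0034, unadjusted p = 0.0428, limma adjusted p = 0.348). *Ctnnd1* had means of 7049 ± 215 and 6806 ± 124 (SD, n = 3 in each group), a log2 fold change of -0.05 with an interval of -0.14 to 0.04. Another gene model of GENCODE M21 on the same strand, Gm28635, covers 61.2% of the exon bases of *Ctnnd1*. It has no row of its own in the deposited values, and whether it altered the count of *Ctnnd1* was not tested.

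*Ctnnd2*, a p120-related catenin enriched in neurons, was at 430, 485 and 453 in control pools and at 371, 348 and 357 in mutant pools. Its groups were separate, with a log2 fold change of -0.34 (95% interval -0.51 to -0.18, unadjusted p = 0.000915, limma adjusted p = 0.0844). Without control pool 3 it passed the adjusted threshold (0.04), and across the 6 fits without 1 pool the adjusted p was 0.04 to 0.37. *Ctnna2*, the neuronal alpha-catenin, was at 188, 215 and 157 in control pools and at 235, 261 and 242 in mutant pools. No mutant pool was as low as the highest control pool, and the log2 fold change was 0.41 (95% interval 0.14 to 0.68, unadjusted p = 0.00739, adjusted p = 0.185). Of the 12 neural crest and neuronal markers 3 were lower and 0 higher at an unadjusted p under 0.05, beside 6.89% and 6.67% of all tested genes. Their median log2 fold change was -0.02, and their part in the values of *Ctnnd2* and *Ctnna2* was not tested.

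Promoter windows of RefSeq (GRCm38.p6, from 250 bases before to 50 bases after a start site) matched 20 of the 39 members. *Cdh1*, *Cdh2* and *Cdh16* had no window there, so their promoters were not searched. Those of *Ctnna2* and *Ctnnd2* are shown because these 2 catenins had the lowest unadjusted p of the catenins, with estimates of opposite sign. Neither passed the adjusted threshold, and after epithelial scaling both estimates were above 0 (0.82 for *Ctnna2* and 0.070 for *Ctnnd2*). Capitals mark the E-box hexamer CACCTG or its reverse complement CAGGTG, a sequence bound by zinc-finger repressors such as SNAI and ZEB proteins. It was searched on both strands.
*Ctnna2* (chr6:77979618-77979917, minus strand): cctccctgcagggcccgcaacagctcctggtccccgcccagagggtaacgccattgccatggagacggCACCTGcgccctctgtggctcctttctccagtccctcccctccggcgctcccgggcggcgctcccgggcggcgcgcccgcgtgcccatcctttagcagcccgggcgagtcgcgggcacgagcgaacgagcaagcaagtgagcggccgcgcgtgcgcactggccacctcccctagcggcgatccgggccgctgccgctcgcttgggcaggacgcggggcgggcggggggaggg
*Ctnnd2* (chr15:30172284-30172583, plus strand): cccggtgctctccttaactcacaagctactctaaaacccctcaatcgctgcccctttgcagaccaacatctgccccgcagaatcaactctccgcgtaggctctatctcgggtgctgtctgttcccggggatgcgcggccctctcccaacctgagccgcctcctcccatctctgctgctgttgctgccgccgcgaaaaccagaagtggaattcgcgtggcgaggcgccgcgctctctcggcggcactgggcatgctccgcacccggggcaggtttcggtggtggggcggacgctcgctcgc
The window of *Ctnna2* holds 1 such hexamer and that of *Ctnnd2* holds 0. Among all 32851 windows 20.2% hold at least 1, and among the 25 windows of members 6 do (24%), in *Cdh7*, *Ctnna2*, *Dsp* and *Pkp4*. *Cdh7* has more than 1 of these windows, so the 6 are not 6 genes. Both windows are rich in CpG, with 38 CG pairs in *Ctnna2* and 28 in *Ctnnd2* beside a median of 7 over all windows. A match is a description of these letters and was not measured as binding.

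In the desmosome, *Dsg2*, *Pkp2*, *Pkp3* and *Perp* had lower means in mutant lungs, but only *Pkp2* and *Pkp3* had groups that did not overlap. The more abundant *Jup*, *Dsp* and *Pkp4* overlapped between groups as well. At an unadjusted p under 0.05, 4 of the 11 desmosomal genes were lower and 0 higher, beside 6.89% and 6.67% of all tested genes, and 0 passed the adjusted threshold. The desmosomal cadherin *Dsg2* (desmoglein 2) was at 411, 360 and 496 in control pools and at 364, 345 and 345 in mutant pools. Mutant pool 1 exceeded control pool 2, so the groups overlapped, and the log2 fold change of -0.25 (95% interval -0.49 to -0.0090, unadjusted p = 0.0434, limma adjusted p = 0.35) fell in size to -0.13 without control pool 3. Its partner *Dsc2* (desmocollin 2) was at 250.5, 225 and 324 in control pools and at 296, 301 and 302 in mutant pools. Control pool 3 was the highest of all, and the log2 fold change was 0.19 with an interval of -0.09 to 0.46. It was 0.34 without control pool 3 (limma adjusted p = 0.0752) and 0.074 without control pool 2 (adjusted p = 0.806). *Dsg2* and *Dsc2* lie on chromosome 18, 499 kb apart, and their differences have opposite signs, although the intervals overlap.

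Plakophilins link the desmosomal cadherins to desmoplakin. *Pkp2*, which is also the plakophilin of heart muscle, was at 217, 179 and 165 in control pools and at 145, 137 and 124 in mutant pools. No pools overlapped, with a log2 fold change of -0.46 (95% interval -0.75 to -0.17, unadjusted p = 0.00558, limma adjusted p = 0.164), which passed without control pool 3 (adjusted p = 0.0486, and up to 0.493 without another pool). Cardiac and epithelial markers both summed lower in the mutant pools, and after scaling to epithelial markers the log2 fold change of *Pkp2* was -0.042 (limma adjusted p = 0.848). The part of cardiac cells in the value of *Pkp2* was not tested. *Pkp3*, the plakophilin of simple and stratified epithelia, was at 82.5, 99.2 and 103 in control pools and at 75.6, 57.8 and 57.9 in mutant pools. Its groups did not overlap, and the log2 fold change was -0.57 (95% interval -0.95 to -0.20, unadjusted p = 0.00687, adjusted p = 0.178). *Pkp4*, a plakophilin that is found at adherens junctions too, was level, with means of 2393 ± 117 and 2280 ± 63.1 (SD, n = 3), while *Pkp1*, of stratified epithelia, was at 0 to 2.04 in all pools.

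*Perp*, which encodes a small membrane protein of desmosomes in stratified epithelia, was at 59.9, 38.2 and 88.5 in control pools and at 29.6, 21.6 and 46.1 in mutant pools. Its log2 fold change of -0.90 was near that of *Cdh1*, but mutant pool 3 exceeded control pool 2 and the 95% interval ran from -1.66 to -0.15 (unadjusted p = 0.0229, limma adjusted p = 0.27). *Jup*, at 1988, 2044 and 1909 in control pools and at 2002, 1941 and 2089 in mutant pools, and *Dsp*, at 1490, 1445 and 1719 and at 1436, 1547 and 1427, overlapped between groups. Their 95% intervals were -0.08 to 0.13 for *Jup* and -0.23 to 0.08 for *Dsp*. The interval of *Jup* lies apart from those of *Cdh1*, *Pkp2* and *Pkp3*. That of *Dsp* lies apart from the interval of *Cdh1* but overlaps those of *Pkp2* and *Pkp3*. The plakins *Ppl* (means 87.5 and 75.1) and *Evpl* (185 and 178), which bridge junctions and keratins, also overlapped. Of the other desmosome-related genes, 10 of 15 listed were tested. The keratins *Krt8* (log2 fold change -0.55, adjusted p = 0.0128) and *Krt18* (-0.46, adjusted p = 0.0263), partners in the filaments of simple epithelia, fell, and both are also on the epithelial list. The 4 genes higher at an unadjusted p under 0.05 were *Krt19*, *Dsc3*, *Des* and *Vim*, with log2 fold changes of 0.44, 0.64, 0.20 and 0.17. Over all tested genes 6.67% were higher. *Krt19* is on the epithelial list too, as its only marker that was higher at this threshold.

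Ratios within a pool hardly depend on the size factor, and show how members shifted against each other. The log2 ratio of *Cdh1* to *Cdh2* was -1.16, -1.20 and -1.31 in the control lungs against -2.28, -2.65 and -2.40 in mutant pools, a difference of -1.22 between the group means. *Cdh1* and *Cdh3* were about equal in control pools, where the log2 ratio of *Cdh3* to *Cdh1* was -0.14, -0.26 and 0.28, while in mutant pools it was 0.79, 0.997 and 0.88. All 3 mutant pools thus had more normalized counts of *Cdh3* than of *Cdh1*. *Dsp* to *Cdh1* shifted similarly, by 0.90 on the log2 scale, and *Pkp3* to *Pkp4* by -0.50. *Jup* to *Ctnnb1*, the pair of armadillo proteins that compete for the same cadherin tail, differed by 0.04 with overlapping groups (exact permutation test, two-sided, p = 0.5). Of the 16 ratios examined, 10 had no overlap between the groups. Every ratio with *Cdh1* is among these 10, so most of them share its fall and are not separate results. The share of such ratios over all pairs of genes was not measured. For the 10 the exact permutation test gave p = 0.1, the smallest that 3 pools against 3 allow. After adjustment over the 16 ratios it was 0.16, so that this test cannot reach the threshold with 3 pools in each group.

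Set against the mean log2 value of the 20 epithelial markers in the same pool, *Cdh1* was still lower in every mutant pool. This log2 ratio was 1.47, 1.43 and 1.38 in the control lungs against 0.97, 0.83 and 0.82 in mutant pools, a difference of -0.56 (exact permutation test, p = 0.1). In the limma fit across all genes scaled to these markers, in which 10954 of 17168 genes passed, the same difference had an adjusted p of 0.000364. It was -0.61 to -0.53 without 1 pool at a time and -0.66 with the first 10 markers of the list. *Jup* and *Cdh3* had no overlap in the other direction. *Jup* was at 1.87, 1.86 and 1.95 in control pools and at 2.25, 2.45 and 2.29 in mutant pools, and the difference for *Cdh3* was 0.37, which became 0.27 with overlapping values (exact permutation test, p = 0.4) when the first 10 markers were used. *Dsp*, *Dsg2*, *Pkp3*, *Perp* and *Ppl* overlapped between the groups on this scale, with differences of 0.34, 0.16, -0.16, -0.49 and 0.21. In the same limma fit the median log2 fold change of all tested genes was 0.41, and 10866 of the 17168 were called higher. *Jup* (0.44), *Cdh3* (0.37) and *Dsp* (0.34) were close to that median. Their limma adjusted p was 0.00233, 0.00865 and 0.0146 in that order, and it was 0.0881 to 0.532 for *Dsg2*, *Pkp3*, *Perp* and *Ppl*. Single pools moved these differences, which ranged without 1 pool from 0.22 to 0.47 for *Dsp*, 0.014 to 0.34 for *Dsg2*, -0.27 to -0.041 for *Pkp3*, -0.83 to -0.15 for *Perp* and 0.090 to 0.33 for *Ppl*. *Jup*, *Dsp* and *Cdh3* are not limited to epithelium, and the cells from which their reads came were not measured.

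**Figure D3:**
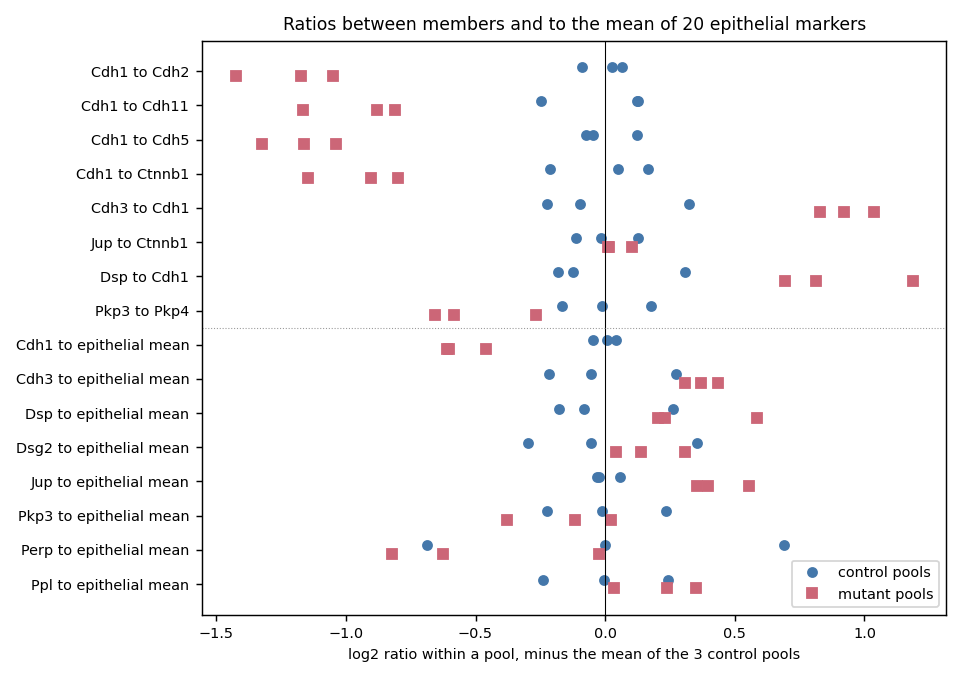
Log2 ratios within each pool (horizontal axis), shown relative to the mean of the 3 control pools, for 8 pairs of members above the dotted line and for 8 members against the mean of 20 epithelial markers below it. Squares of mutant pools lie left of all control circles for *Cdh1* against *Cdh2*, *Cdh11*, *Cdh5*, *Ctnnb1* and the epithelial mean, and within the range of the control circles for *Jup* to *Ctnnb1*.

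Per kilobase of exons, the levels of the members spanned a wide range. *Ctnnb1* had 5941 ± 295 normalized counts per kb (SD, n = 3 control pools), followed by *Ctnna1* at 1372 ± 27.8, *Cdh11* at 1201 ± 69.0, *Ctnnd1* at 963 ± 29.4 and *Cdh5* at 811 ± 67.0. *Pkp4* (419 ± 20.5) and *Cdh2* (416 ± 18.2) did not differ beyond their spread, and neither did *Cdh3* (320 ± 34.7), *Cdh1* (315 ± 28.6) and *Jup* (308 ± 10.5). In mutant pools *Cdh1* was at 161 ± 21.4 per kb, beside 309 for *Cdh3*, 312 for *Jup* and 152 for *Dsp*. Among the cadherins *Cdh24* (253 ± 29.5) came next and *Cdh16* after it, at 71.5 (61.3 to 83.1) in control and 38.7 in mutant pools. The desmosomal cadherins *Dsg2* and *Dsc2* were close to each other in control pools, at 51.0 ± 8.34 and 50.5 ± 9.73 per kb.

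**Figure D4:**
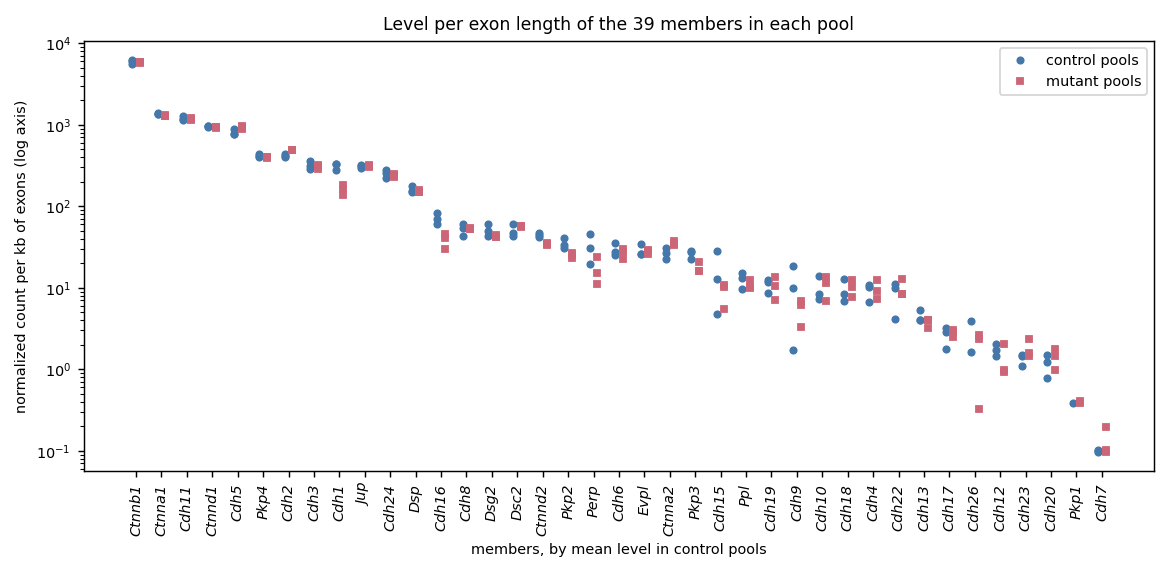
Normalized counts per kilobase of exons (logarithmic vertical axis) of the 39 members in each of the 6 pools, ordered by the mean of the control pools. Values of 0 (*Pkp1* and *Cdh26*) cannot be drawn on this axis, and the mutant squares lie visibly below the control circles for *Cdh1* and *Cdh16*.

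Partners of these proteins were examined as lists. Of 28 tested partners of the adherens junction, 0 passed the adjusted threshold, and at an unadjusted p under 0.05 8 were lower and 2 higher, beside 6.89% and 6.67% of all tested genes. The median log2 fold change was -0.06. The lower ones were *Afdn*, which ties nectins to actin, *Vcl* (vinculin), which binds alpha-catenin under tension, *Plekha7* and *Camsap3*, which join p120-catenin to microtubules, *Arvcf*, a relative of p120-catenin, *Ctnnal1*, *Ptprf* and *Epb41l5*. Their log2 fold changes ran from -0.23 (*Camsap3*) to -0.09 (*Afdn*). The 2 higher ones were *Nectin1* (0.16) and *Ptprm* (0.23), an adhesion molecule and a receptor phosphatase. In the wider cadherin superfamily 26 genes were tested, of which 0 passed the adjusted threshold, 4 were lower and 6 higher at an unadjusted p under 0.05, with a median of 0.04. The planar polarity cadherins *Celsr1* (log2 fold change -0.23) and *Celsr2* (-0.28) were among the lower and the protocadherins *Pcdh17* (0.29) and *Pcdh19* (0.43) among the higher. All genes of these lists with an unadjusted p under 0.05 were named after their values were seen, apart from *Krt8* and *Krt18*.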

How the data were processed

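RNA of whole lungs at E11.5 was sequenced on a BGISEQ-500 instrument by the study, with 3 pools of 3 or 4 lungs in each group. The submitters' processing notes name Trim Galore, HISAT2, featureCounts, DESeq2 and mm10 without versions. Settings for strand, annotation and filters are not given in the sources used here. The authors deposited 1 table of normalized counts, that is, a signal made from the reads of each gene by scaling for sequencing depth. Its totals were 20705058 to 20865998 per library. The deposited table also holds the authors' own comparison (log2 fold changes with standard errors, a test score, and p-values with adjusted p-values), which was not used, and the authors' mean. Columns of other samples numbered 0.

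Log2(normalized count + 1) was tested for genes that reached 1 in 3 or more libraries with limma 3.58.1 (R 4.3.3), allowing the variance to follow the mean level, and Benjamini-Hochberg adjustment over all 17168 genes tested. A fold change on this scale understates the change of low genes. In each library 100% of values were whole multiples of 1 step (tolerance 0.01). The reads so recovered were tested with edgeR 4.0.16, which called 545 genes, and DESeq2 1.42.0, which called 416. Control pool 3, whose step of 0.994 is close to 1, was not entered, so these used 5 libraries. The scripts were tested on simulated data. Other alternatives were limma without the trend, upper-quartile and TMM scaling, scaling to epithelial markers, other filters, a pseudocount of 0.1, a replicate block and leaving out each pool.

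Same-numbered pools came from different embryos, and the correlations of their deviations from the group means were -0.02, 0.10 and 0.03, so the numbers were not taken as pairs. Nothing in the labels ties pools to litters, and p-values measure the spread between pools. Positions and exon lengths came from GENCODE M21 (GRCm38). Values per pool are given for members with an adjusted or unadjusted p under 0.05 and the highest member of each role. Members of the ratios are named too, as are up to 3 genes of each list of partners with an adjusted p under 0.05. The members and lists were chosen with earlier results of these data known. No macrophage, erythroid or skeletal muscle marker had an unadjusted p under 0.05 (0 of 10, 0 of 7 and 0 of 6 tested).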

Additional observations from a re-analysis of the deposited data

How the results depend on the processing

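The number of members with an adjusted p under 0.05 was 0 by limma without the trend, 1 (*Cdh1*) without a filter on low values, 2 (*Cdh1* and *Cdh2*) with at least 10 in every library or a pseudocount of 0.1, 5 by edgeR on 5 libraries and 19 after scaling to epithelial markers, and 0 to 5 when 1 pool was left out. With the replicate number as a block it was 1 (*Cdh1*), although the labels give nothing but the number that same-numbered pools share. The limma adjusted p of *Perp* was then 0.0945, beside 0.27 without the block. *Cdh16* had an adjusted p of 0.0531 with at least 10 in every library and 0.0542 with a pseudocount of 0.1, and passed in 5 of 10 other settings (limma, edgeR or DESeq2 adjusted p = 3.12e-05 to 0.252). At an unadjusted p under 0.05, members lower numbered 5 without the trend, 5 by DESeq2 and 2 after epithelial scaling (5 to 10 without 1 pool). Members higher numbered 20 after epithelial scaling (3 to 4 without 1 pool). In either direction such a p was found for 2003 of 17168 tested genes without the trend and 1680 of 18939 by DESeq2. After epithelial scaling it was found for 11629 of 17168. Over all genes, calls numbered 8 without the trend, 545 by edgeR, 416 by DESeq2 and 10954 after epithelial scaling, with 1 to 468 without 1 pool (1 without control pool 1 or mutant pool 3, and 468 without control pool 3).

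Small differences changed sign. By edgeR and DESeq2 the log2 fold changes were 0.039 and 0.040 for *Cdh3*, 0.027 and 0.028 for *Cdh11*, 0.0053 and 0.0065 for *Ctnnb1*, -0.0053 and -0.0041 for *Jup*, and 0.00084 and 0.0021 for *Dsp*. After epithelial scaling they were 0.37 for *Cdh3*, 0.40 for *Cdh11*, 0.33 for *Ctnna1*, 0.39 for *Ctnnb1*, 0.070 for *Ctnnd2*, 0.16 for *Dsg2*, 0.34 for *Dsp*, 0.34 for *Pkp4*, 0.21 for *Ppl* and 0.35 for *Rptor*. Without 1 pool they ranged from -0.11 to 0.040 for *Cdh3*, -0.046 to 0.028 for *Cdh11*, -0.063 to 0.0075 for *Ctnnb1*, -0.0063 to 0.046 for *Jup* and -0.12 to 0.0014 for *Dsp*, and the ratio of *Jup* to *Ctnnb1* from -0.012 to 0.11. Epithelial scaling moves all genes by the same amount, and the median of all tested genes was then 0.41. Control pool 3 was not in the edgeR and DESeq2 tests. Limma without that pool gave 0.040 for *Cdh3*, 0.028 for *Cdh11*, 0.0075 for *Ctnnb1*, -0.0046 for *Jup* and 0.0014 for *Dsp*. Why single pools moved these values was not tested. DESeq2 gave no adjusted p for *Perp*.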
